A study of Mus musculus with 30 samples.

Results

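The change of the Kdm5c knockdown effect between 48 and 72 h was measured in 3T3-L1 cells, a single mouse fibroblast line that can be turned into adipocytes in culture. Sub-confluent cells were reverse-transfected on day −3 of a differentiation schedule, with Lipofectamine RNAiMAX and 50 nM of siRNA. The groups described here were Kdm5c siRNA at 72 h, scramble (the non-targeting control siRNA) at 72 h, Kdm5c siRNA at 48 h and scramble at 48 h, with 5 messenger RNA libraries each. They make up 20 of the 30 libraries of the series. The 10 libraries of 24 h served to choose genes. They do not enter the difference itself, but they do enter the estimate of the spread that its test uses. All groups shared the cell line, the transfection reagent and the dose, and no untransfected cells were analysed here. The effect at a time is the log2 fold change of Kdm5c siRNA over scramble, and the quantity tested was the effect at 72 h minus the effect at 48 h, for each of 12016 genes. A positive difference means that the effect was higher at 72 h. Whether replicates came from separate cultures is not in the labels, and p-values therefore refer to the spread among these libraries only, part of which may be technical. In bulk RNA, fewer cells with a transcript and less of it per cell cannot be told apart.

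KDM5C is an X-linked enzyme that removes methyl groups from lysine 4 of histone H3, a mark found at active promoters. An siRNA guides the cell's RNA interference machinery to a messenger RNA, which is then degraded, and it acts for a limited time. Cells of this line stop dividing as they reach confluence and lay down a collagen-rich matrix, and growth-arrested cells are the usual starting point for adipogenic induction.

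Library totals ran from 25217905 to 33725717 reads, and a count of 0 allows up to 3 reads. A principal component analysis of the 20 libraries put 75.3% of the variance on a first component that followed time, with means of 19.4 ± 2.17 for Kdm5c siRNA and 27.9 ± 3.91 for scramble at 72 h, against −27.4 ± 2.04 for Kdm5c siRNA and −20 ± 2.5 for scramble at 48 h (SD, n = 5). The 48 h scramble libraries were not alike on it: replicates 1, 2 and 3 lay between −18.6 and −17.7 and replicates 4 and 5 both at −22.7, nearer to the siRNA libraries of that time. Many results below are therefore given with and without replicates 1 to 3. Summed fibroblast markers stood at 30210 to 33730 CPM (reads scaled to a common library total) in Kdm5c siRNA and 31540 to 34340 CPM in scramble libraries at 72 h, against 27940 to 29660 CPM and 26310 to 28990 CPM at 48 h, and every fibroblast marker except Cd34 exceeded 12 CPM in each library. Macrophage, endothelial, epithelial and muscle marker lists each summed to under 13 CPM in each of the 20 libraries, and mature adipocyte markers to under 36 CPM.

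Kdm5c itself (X:152233020-152274535, plus strand, GRCm38) was low in every siRNA library and became less low with time. At 72 h it stood at 49.2, 54.1, 53.3, 54.8 and 55.1 CPM with Kdm5c siRNA and 204, 213, 215, 217 and 210.3 CPM with scramble. The 48 h values of Kdm5c were 35.7, 37.9, 39.3, 35.4 and 29.9 CPM with Kdm5c siRNA and 187, 194, 189, 187 and 188 CPM with scramble. The groups were far apart at both times, and the highest 48 h siRNA library was below the lowest 72 h siRNA library. The remaining level was 16.2% of scramble at 24 h, 18.9% at 48 h and 25.2% at 72 h, and the effect was −2.62, −2.41 and −1.99 log2. The difference between 72 and 48 h was 0.42 ± 0.055 log2 (SE; edgeR quasi-likelihood test, adjusted p = 6.15e-06). None of the other 14 measured writers and erasers of lysine 4 methylation was called for this difference by edgeR, DESeq2 or limma. Among them Kmt2d had 0.092 log2 (edgeR adjusted p = 0.109) and the paralog Kdm5a −0.087 log2 (edgeR adjusted p = 0.114).

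Across all genes, 705 of 12016 (5.87%) had an effect at 72 h that differed from the effect at 48 h at an edgeR adjusted p under 0.05. The effect was higher at 72 h for 488 of them (4.06% of genes tested) and lower for 217 (1.81%). Most differences were small: the median size among called genes was 0.21 log2, 33 exceeded 1.5-fold and 1, Agt, exceeded 2-fold, while the median over all genes tested was 0.0044 log2. For scale, the effect at 72 h itself was called higher for 2321 genes (19.3%) and lower for 1941 (16.2%), and at 48 h higher for 2253 (18.8%) and lower for 2019 (16.8%). Combining the calls, 237 effects appeared (called at 72 h and not at 48 h), 100 grew, 307 faded (smaller, or no longer called, at 72 h), 55 reversed sign and 6 were called at neither time alone. Of the effects that faded, 208 had been lower in Kdm5c siRNA cells at 48 h, and 139 of these were not called at 72 h, while 99 had been higher and 73 of these were not called. The effects that grew were nearly all upward, with 91 higher and 9 lower at both times, and 148 of the effects that appeared were higher at 72 h and 89 lower. With 48 h scramble replicates 4 and 5 alone as that time's control, 318 genes had a higher and 129 a lower effect at 72 h, and 322 of the 705 calls were kept, none with the opposite sign. In that setting 48 effects grew, 151 faded and 31 reversed. With replicates 1 to 3 alone, 892 genes were called and 587 of the 705 kept.

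**Figure D1:**
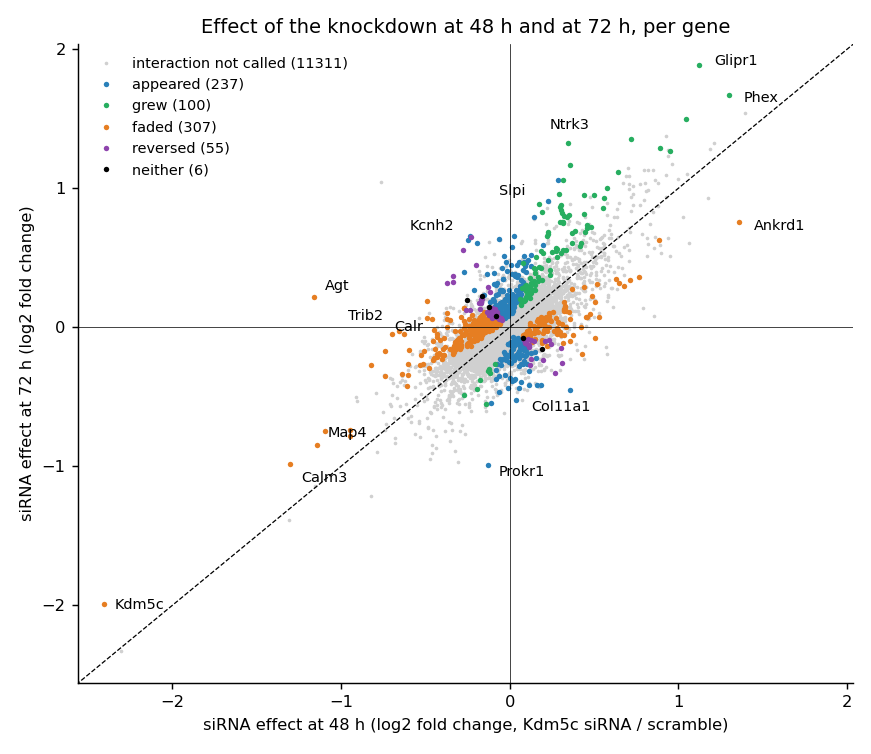
Effect of Kdm5c siRNA on each of 12016 genes at 48 h (horizontal axis) and at 72 h (vertical axis), both as log2 fold change over scramble, with colours for the 5 patterns of called differences and grey for genes not called. Kdm5c, Calm3 and Map4 lie above the dashed line of equal effects at the lower left, so their effects were smaller at 72 h, while Ntrk3, Slpi and Glipr1 lie above it on the right, with larger effects at 72 h.

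Genes chosen on the 24 h libraries, which do not enter the difference, were called more often for a difference back toward scramble than away from it. All 30 libraries share 1 estimate of the spread per gene, so the 24 h call and the call of the difference are not independent. Of the 1426 genes that were lower in Kdm5c siRNA cells at 24 h (11.9% of genes tested), 197 (13.8%) had a higher effect at 72 h than at 48 h and 6 (0.421%) a lower one. Of the 1362 genes that were higher at 24 h (11.3%), 101 (7.42%) had a lower effect at 72 h than at 48 h and 43 (3.16%) a higher one. Among the 9228 genes not called at 24 h these shares were 2.69% higher and 1.19% lower. The median effect of the genes lower at 24 h was −0.15, −0.13 and −0.078 log2 at 24, 48 and 72 h, and that of the genes higher at 24 h was 0.14, 0.12 and 0.088 log2. Of the 20 genes that were more than 1.5-fold lower at 24 h, Kdm5c among them, 8 had a higher effect at 72 h and 0 a lower one. With 48 h scramble replicates 4 and 5 alone, 118 of the genes lower at 24 h had a higher effect at 72 h and 3 a lower one, and 52 of the genes higher at 24 h had a lower and 30 a higher one. When the difference was fitted on the 20 libraries of 48 and 72 h only, 175 of the genes lower at 24 h had a higher effect and 4 a lower one. Of the genes higher at 24 h, 86 then had a lower and 34 a higher one.

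**Figure D2:**
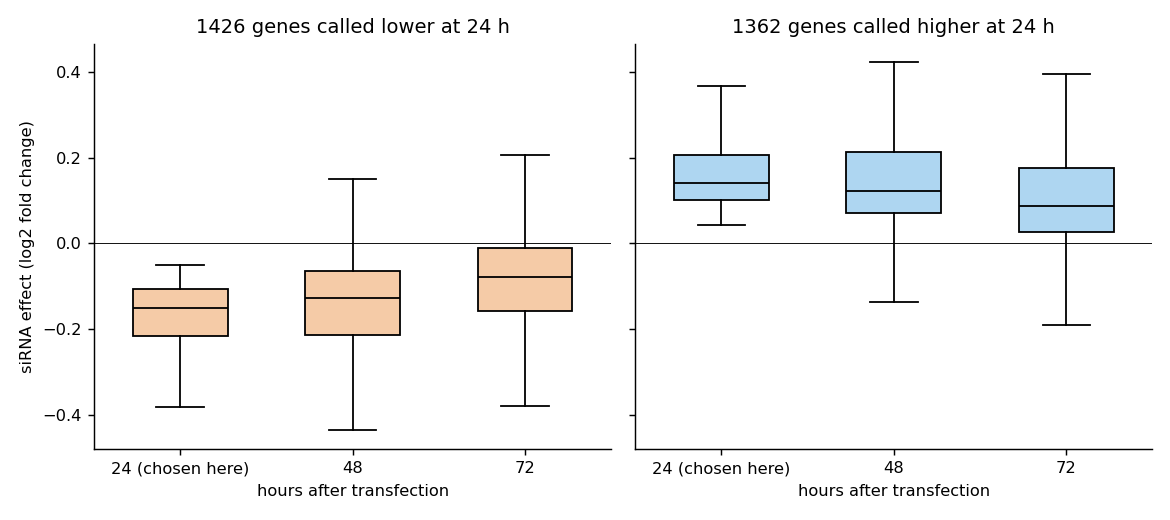
Effect of Kdm5c siRNA (log2 fold change over scramble) at 24, 48 and 72 h for the genes called lower (left) and higher (right) at 24 h. Boxes span the middle of the genes from the lower to the upper quartile, lines are medians, whiskers reach to the farthest gene within 1.5 times the box and genes beyond are not drawn; both sets have their smallest median effect at 72 h.

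The genes with the most negative effects at 24 h after Kdm5c were Calm3, one of the genes for calmodulin, Map4, a microtubule-binding protein, Nrn1 (neuritin), Arf3, a small GTPase of the Golgi, Trub1, a pseudouridine synthase, Gem, a GTP-binding protein that acts on calcium channels, and Dmp1, a matrix protein of bone. All of these had a positive difference between 72 and 48 h, and those other than Trub1 and Dmp1 were called. Calm3 stood at 166, 168, 172, 167 and 165 CPM with Kdm5c siRNA and 329.7, 336, 329, 335 and 333 CPM with scramble at 72 h. Its level at 48 h was 139, 157, 149.7, 151 and 134 CPM with Kdm5c siRNA and 375, 359, 356, 352 and 362 CPM with scramble. The siRNA libraries stayed far below scramble at both times, and at 72 h each of them exceeded each of the 48 h siRNA libraries. The difference was 0.32 ± 0.042 log2 (edgeR adjusted p = 6.04e-06) for Calm3, on effects of −1.39, −1.30 and −0.98 log2 at 24, 48 and 72 h. Map4 followed the same course, with effects of −1.21, −1.14 and −0.84 log2 and a difference of 0.30 ± 0.034 log2 (edgeR adjusted p = 5.11e-07). Arf3 differed by 0.17 log2 (edgeR adjusted p = 0.00562) and Gem by 0.35 log2 (edgeR adjusted p = 0.00199, and 0.0533, no longer called, with 48 h scramble replicates 4 and 5 alone). Nrn1 was near the threshold at 0.21 log2 (edgeR adjusted p = 0.0468) and lost its call in 16 of 34 alternative settings. Trub1 had 0.21 log2 (edgeR adjusted p = 0.0834) and Dmp1 0.32 log2 (edgeR adjusted p = 0.0651), and they were called in 2 and 6 of 34 settings in that order.

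Other large effects faded by 72 h. Calr, the endoplasmic reticulum chaperone calreticulin, stood at 1379.9, 1403, 1363, 1370.2 and 1391 CPM with Kdm5c siRNA and 1449, 1479.6, 1474, 1429 and 1464 CPM with scramble at 72 h. Calr at 48 h had 1289.6, 1283, 1355, 1335 and 1295 CPM with Kdm5c siRNA and 1772, 1790.1, 1718, 1644 and 1659 CPM with scramble. The groups did not overlap at either time, but the gap at 72 h was small, and effects of −0.52, −0.39 and −0.076 log2 at 24, 48 and 72 h gave a difference of 0.31 ± 0.029 log2 between the last times (edgeR adjusted p = 1.72e-08). Trib2, a pseudokinase that steers proteins to degradation, stood at 71.6, 70.5, 75.6, 75.2 and 71.3 CPM with Kdm5c siRNA and 80.9, 70.1, 77.2, 73.7 and 69.5 CPM with scramble at 72 h. At 48 h Trib2 stood at 47.3, 46.5, 50.6, 51.4 and 49.3 CPM with Kdm5c siRNA and 84.2, 81.2, 75.8, 77.3 and 69.01 CPM with scramble. The groups were apart at 48 h and overlapped at 72 h, and the difference of 0.63 ± 0.065 log2 (edgeR adjusted p = 7.29e-08) was made up of a change over time of 0.61 log2 in Kdm5c siRNA cells and −0.026 log2 in scramble cells (edgeR adjusted p = 1.49e-13 and 0.61). Fam20c, a kinase of secreted proteins, had effects of −0.31, −0.46 and 0.059 log2, and Igf2bp2, an RNA-binding protein, −0.42, −0.53 and −0.27 log2 at 24, 48 and 72 h (edgeR adjusted p = 2.65e-07 for Fam20c and 2.65e-07 for Igf2bp2). The difference of 1.38 ± 0.29 log2 of Agt, the precursor of angiotensin, was the largest among genes called at 2 CPM or more (edgeR adjusted p = 0.00224). Its level was 7.59, 9.26, 13.5, 11.98 and 10.7 CPM with Kdm5c siRNA and 7.38, 9.56, 8.12, 11.01 and 9.53 CPM with scramble at 72 h. The 48 h values of Agt were 1.19, 1.45, 2.09, 1.94 and 1.60 CPM with Kdm5c siRNA and 4.86, 3.3, 5.14, 2.85 and 2.47 CPM with scramble. The groups were apart at 48 h and overlapped at 72 h. The 48 h scramble replicates 1 to 3 held its 3 highest values of that group, and with replicates 4 and 5 alone the difference was 0.90 log2 and no longer called (edgeR adjusted p = 0.134).

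Raised effects faded as well. Ccn4, a matricellular protein of the Wnt response, stood at 196, 199, 205, 209 and 209 CPM with Kdm5c siRNA and 189.9, 196, 192, 191 and 202 CPM with scramble at 72 h. Its level at 48 h was 195, 190.0, 191, 195 and 213 CPM with Kdm5c siRNA and 145, 139.8, 140.0, 145 and 147 CPM with scramble. The clear gap of 48 h had become an overlap at 72 h, with effects of 0.53, 0.46 and 0.072 log2 at 24, 48 and 72 h and a difference of −0.39 ± 0.047 log2 (edgeR adjusted p = 1.17e-06). Ankrd1, a stretch-responsive gene of muscle and fibroblasts, had effects of 0.76 log2 at 72 h and 1.36 log2 at 48 h (edgeR adjusted p = 0.00708). The call of Ankrd1 was lost with 48 h scramble replicates 4 and 5 alone (edgeR adjusted p = 0.183). Ccl9, a chemokine, fell to an effect of 0.30 log2 at 72 h, against 0.68 log2 at 48 h (edgeR adjusted p = 0.00298), and Igfbp4, an insulin-like growth factor binding protein, to 0.23 log2, against 0.49 log2 at 48 h (edgeR adjusted p = 0.00446).

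The 100 effects that grew included those of Spp1, Slpi and Ntrk3. Spp1, which encodes osteopontin, a phosphoprotein of mineralised and remodelling matrix, had the smallest adjusted p of all genes tested. It stood at 2949, 2978, 2964, 3009 and 2947 CPM with Kdm5c siRNA and 2177, 2141, 2202, 2153 and 2098 CPM with scramble at 72 h. Spp1 at 48 h had 2184, 2130.2, 2298, 2241 and 2160.1 CPM with Kdm5c siRNA and 2069, 2048, 2155, 2096 and 2057 CPM with scramble. The ranges overlapped at 48 h and were far apart at 72 h, and effects of −0.038, 0.081 and 0.47 log2 at 24, 48 and 72 h gave a difference of 0.38 ± 0.032 log2 (edgeR adjusted p = 1.44e-09). Slpi, a secreted inhibitor of neutrophil proteases, stood at 23.5, 23.7, 24.6, 23.3 and 23.4 CPM with Kdm5c siRNA and 13.9, 10.5, 14.7, 13 and 12.02 CPM with scramble at 72 h. At 48 h Slpi stood at 13.4, 12.1, 13.9, 14.5 and 12.4 CPM with Kdm5c siRNA and 11.7, 12.2, 12.4, 10.6 and 12.1 CPM with scramble. Its groups overlapped at 48 h and were well apart at 72 h, a difference of 0.72 ± 0.089 log2 (edgeR adjusted p = 2.29e-06). Ntrk3, a neurotrophin receptor, stood at 9.42, 8.94, 9.77, 11.3 and 10.4 CPM with Kdm5c siRNA and 4.04, 3.50, 5.30, 3.68 and 3.36 CPM with scramble at 72 h. The 48 h values of Ntrk3 were 22.01, 20.3, 24.2, 24.7 and 22.3 CPM with Kdm5c siRNA and 17.3, 17.7, 17.6, 17.2 and 19.7 CPM with scramble. The groups were apart at both times. Its change over time was −1.16 log2 in Kdm5c siRNA cells and −2.14 log2 in scramble cells, and the effect was 1.33 log2 at 72 h and 0.35 log2 at 48 h (edgeR adjusted p = 1.73e-05). Flt1, a receptor for vascular endothelial growth factor, had effects of 0.15, 0.23 and 0.68 log2 at 24, 48 and 72 h (edgeR adjusted p = 1.72e-08 for the last difference), and Ptprn, a dense-core vesicle protein, −0.017, 0.23 and 0.68 log2 (edgeR adjusted p = 7.29e-08). Dpt, the matrix protein dermatopontin, differed by 0.64 log2, Igfbp6 by 0.43 log2, Slco4a1, an organic anion carrier, by 0.81 log2 and Ltbp1, a latent TGF-beta binding protein, by 0.23 log2, each with the larger rise at 72 h. Glipr1 differed by 0.76 log2 (edgeR adjusted p = 0.0192), on scramble means of 0.695 CPM at 72 h and 1.51 CPM at 48 h, and lost its call in 3 of the 33 settings that tested it. Zfr, an RNA-binding zinc finger protein, was one of the 9 lowered effects that grew, with −0.33 log2 at 72 h and −0.12 log2 at 48 h (edgeR adjusted p = 6.15e-06).

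The effects that appeared at 72 h included those of Ank3, Grem1 and Col11a1. Ank3, which encodes the membrane adaptor ankyrin-G, stood at 126, 124, 121, 121 and 120.1 CPM with Kdm5c siRNA and 93.5, 90.01, 100.3, 91.4 and 87.4 CPM with scramble at 72 h. Its level at 48 h was 118, 112, 122, 117 and 115 CPM with Kdm5c siRNA and 120.4, 120.2, 122, 113 and 115 CPM with scramble. The ranges overlapped at 48 h, and over the next day the level changed by 0.10 log2 in Kdm5c siRNA cells and −0.32 log2 in scramble cells, a difference of 0.42 ± 0.046 log2 (edgeR adjusted p = 2.65e-07). Grem1, a secreted antagonist of bone morphogenetic proteins, stood at 1516, 1502, 1699, 1642 and 1663 CPM with Kdm5c siRNA and 1191, 1294, 1275, 1334 and 1214 CPM with scramble at 72 h. Grem1 at 48 h had 1084, 1056, 1165, 1131 and 1014 CPM with Kdm5c siRNA and 1143, 1118, 1229, 1073 and 1056 CPM with scramble. The 72 h ranges did not overlap and the 48 h ranges did, with a difference of 0.39 ± 0.054 log2 (edgeR adjusted p = 1.44e-05). Ank, a pyrophosphate transporter, differed by 0.34 log2 (edgeR adjusted p = 1.39e-06) and Uhrf2, a chromatin-binding ubiquitin ligase, by 0.21 log2 (edgeR adjusted p = 6.15e-06), both upward. Col11a1, a chain of a fibrillar collagen, stood at 49.3, 53.6, 62.97, 60.9 and 64.2 CPM with Kdm5c siRNA and 72.6, 94.6, 74.9, 87.3 and 89.8 CPM with scramble at 72 h. At 48 h Col11a1 stood at 17.8, 16.2, 18.7, 17.2 and 18.3 CPM with Kdm5c siRNA and 17.5, 19.2, 18.3, 15.04 and 15.8 CPM with scramble. The ranges overlapped at 48 h and were apart at 72 h. It rose with time by 1.76 log2 in Kdm5c siRNA cells and by 2.32 log2 in scramble cells, a difference of −0.57 ± 0.11 log2 (edgeR adjusted p = 0.000937), although at 24 h its effect had been 0.59 log2. Sema3a, a secreted guidance protein, had an effect of −0.54 log2 at 72 h and −0.11 log2 at 48 h (edgeR adjusted p = 1.31e-05). The most negative difference among genes called at 2 CPM or more belonged to Prokr1, a receptor for prokineticins, at −0.86 ± 0.21 log2 (edgeR adjusted p = 0.00813). Prokr1 averaged 5.07 ± 0.582 CPM with Kdm5c siRNA and 10.1 ± 2.35 CPM with scramble at 72 h, and its call was lost with 48 h scramble replicates 4 and 5 alone (edgeR adjusted p = 0.0866). Ogn (osteoglycin), Adamts6, a matrix protease, and Jag1, a Notch ligand, also had lower effects at 72 h, by −0.57, −0.46 and −0.33 log2 in that order.

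Among the 55 reversed effects, 37 were lower at 48 h and higher at 72 h and 18 the other way. Antxr2, a receptor for matrix proteins, stood at 104, 99.1, 102, 102 and 99.3 CPM with Kdm5c siRNA and 108, 109, 107, 108 and 108 CPM with scramble at 72 h. The 48 h values of Antxr2 were 85.2, 82.8, 85.9, 82.03 and 87.2 CPM with Kdm5c siRNA and 69.9, 71.7, 73.2, 75.3 and 70.2 CPM with scramble. The siRNA libraries were all above scramble at 48 h and all below it at 72 h, a difference of −0.32 ± 0.032 log2 (edgeR adjusted p = 4.8e-08). Sfrp2, a secreted modulator of Wnt signalling, stood at 21.4, 24.2, 26.8, 25.6 and 25.9 CPM with Kdm5c siRNA and 19.3, 19.7, 18.4, 21.6 and 19.8 CPM with scramble at 72 h. Its level at 48 h was 22.01, 20.5, 23.5, 23.8 and 21.3 CPM with Kdm5c siRNA and 31.96, 27.3, 29.01, 25.6 and 26.4 CPM with scramble. Its siRNA libraries lay below scramble at 48 h and mostly above it at 72 h, where 1 siRNA library was within the scramble range, and the difference was 0.66 ± 0.085 log2 (edgeR adjusted p = 4.72e-06). Sox4, a transcription factor, stood at 243, 235, 251, 245 and 244 CPM with Kdm5c siRNA and 252, 274, 247, 263 and 266 CPM with scramble at 72 h. Sox4 at 48 h had 249.8, 245, 248, 245 and 257 CPM with Kdm5c siRNA and 218, 216, 217, 219.7 and 207 CPM with scramble. The 72 h ranges overlapped and the 48 h ranges did not, with a difference of −0.31 ± 0.039 log2 (edgeR adjusted p = 3.59e-06). Rasa3, which switches off Ras proteins, had effects of 0.13 log2 at 72 h and −0.18 log2 at 48 h, and Prkg2, a cyclic GMP-dependent kinase, 0.13 log2 at 72 h and −0.12 log2 at 48 h. Kcnh2, a potassium channel, and Sncg, gamma-synuclein, reversed upward by 0.88 and 0.83 log2 on group means under 12 CPM, and Lpar6, a lysophosphatidic acid receptor, downward by −0.60 log2.

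**Figure D3:**
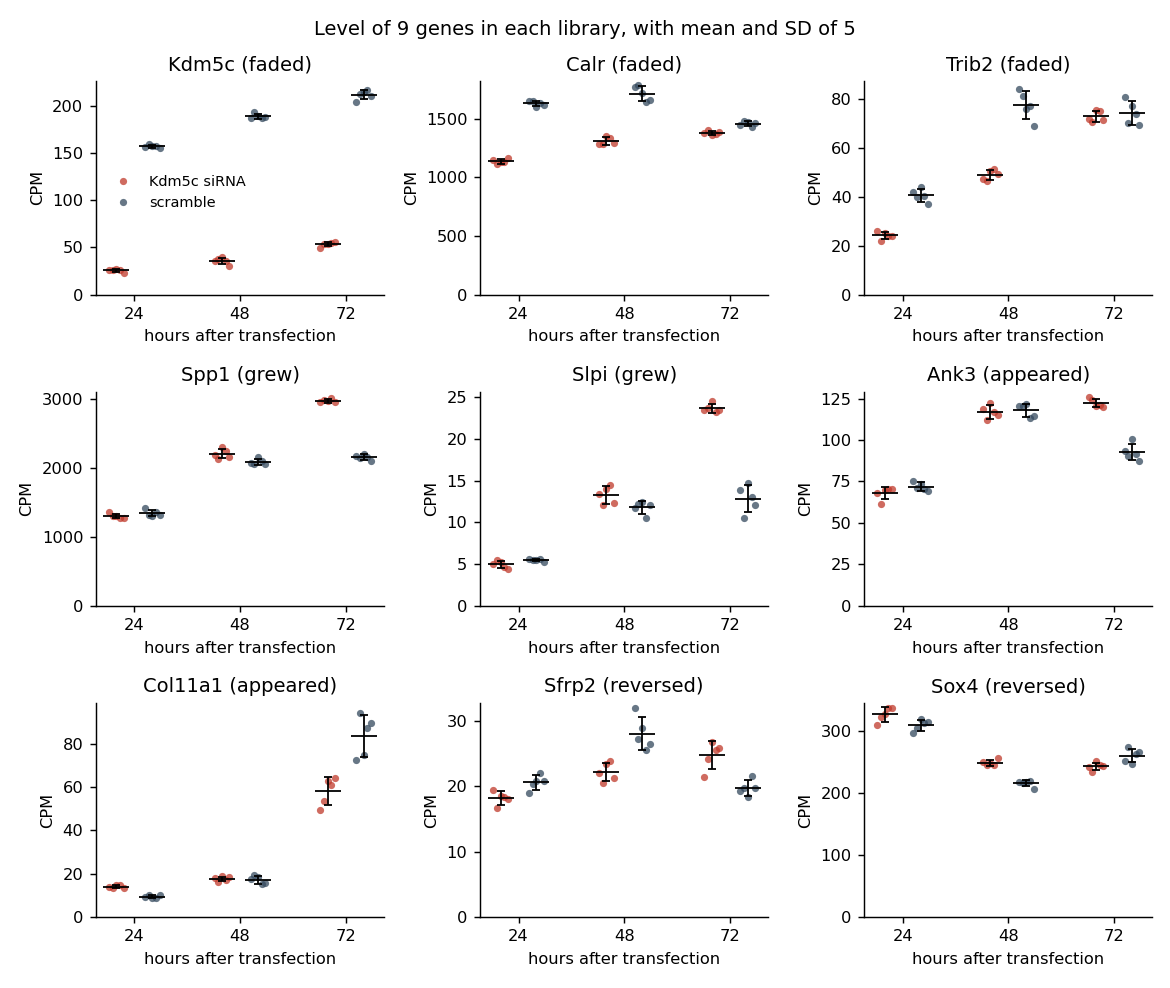
Level in CPM of 9 genes in each library at 24, 48 and 72 h after transfection, with Kdm5c siRNA (red) left of scramble (grey) at each time; each point is 1 library, and the black marks are the mean and SD of 5. Trib2 siRNA libraries reach the scramble range at 72 h, the Spp1 and Slpi gaps open at 72 h, and Sfrp2 and Sox4 change the order of their arms between 48 and 72 h.

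The same difference can be read as a change over time within each arm. Between 48 and 72 h, 4396 genes rose (36.6%) and 4582 fell (38.1%) in Kdm5c siRNA cells, and 4420 rose (36.8%) and 4557 fell (37.9%) in scramble cells. The arms moved in opposite directions, both past the threshold, for 43 genes. Among the 488 genes with a higher effect at 72 h, the median change over time was 0.10 log2 in Kdm5c siRNA cells and −0.12 log2 in scramble cells. Among the 217 with a lower effect it was 0.053 log2 in Kdm5c siRNA cells and 0.27 log2 in scramble cells, and 101 rose in both arms. These medians describe genes chosen on the same libraries and are no test.

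The 36 gene lists differed in how many of their members were called, and 6 of them had none. Some members of the lipid, cell division and chaperone lists had higher effects at 72 h, and some of the integrated stress response list had lower ones. The background to read these counts against is 4.06% of genes tested called higher and 1.81% called lower.

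**Figure D4:**
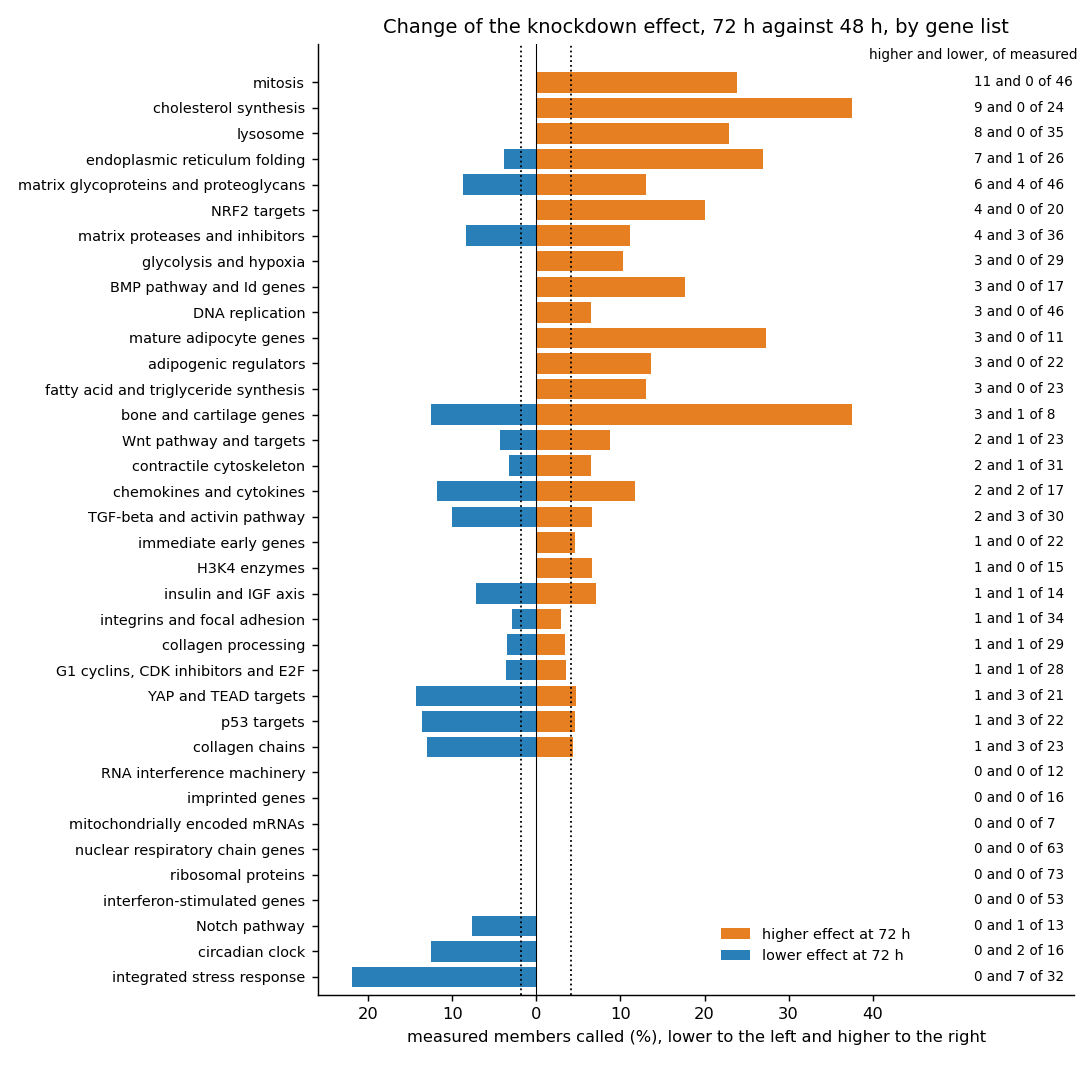
Share of the measured members of each of 36 gene lists whose Kdm5c siRNA effect was higher (orange, to the right) or lower (blue, to the left) at 72 h than at 48 h, at an edgeR adjusted p under 0.05, with the counts at the right edge. Dotted lines mark the shares over all genes tested, 4.06% higher and 1.81% lower, and the cholesterol synthesis list (9 of 24) and the bone and cartilage list (3 of 8) both reach 37.5%.

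Most cholesterol synthesis genes were lower in Kdm5c siRNA cells at 48 h, and some of these effects faded. Of 24 measured enzymes and regulators, 9 had a higher effect at 72 h and 0 a lower one, and the estimate was above 0 for all 24. The median effect was −0.15, −0.23 and −0.046 log2 at 24, 48 and 72 h, with 23 members called lower at 48 h and 9 at 72 h, and the median difference was 0.16 log2. Acat2, which makes acetoacetyl-CoA at the entry to the pathway, stood at 104, 107, 107, 112 and 110.1 CPM with Kdm5c siRNA and 116, 106, 113, 107 and 109 CPM with scramble at 72 h. At 48 h Acat2 stood at 129, 121, 133, 129 and 124 CPM with Kdm5c siRNA and 162, 159.7, 161, 147 and 149.8 CPM with scramble. The groups were apart at 48 h and overlapped at 72 h, after changes over time of −0.20 log2 in Kdm5c siRNA cells and −0.47 log2 in scramble cells, a difference of 0.27 ± 0.049 log2 (edgeR adjusted p = 0.000611). Fdft1, squalene synthase, differed by 0.18 log2 (edgeR adjusted p = 0.00137), and Lss, lanosterol synthase, by 0.22 log2 (edgeR adjusted p = 0.00306, and 0.112 with 48 h scramble replicates 4 and 5 alone). Mvk, Mvd, Msmo1 and Hsd17b7, enzymes along the same route, were further effects that faded. Mean log2 CPM over the list was 6.61 ± 0.022 with Kdm5c siRNA and 6.67 ± 0.028 with scramble at 72 h, against 6.60 ± 0.052 and 6.82 ± 0.068 at 48 h (SD, n = 5). The 48 h scramble replicates 1 to 3 held the highest values of the list, from 6.86 to 6.88, and replicates 4 and 5 had 6.75 and 6.74. With replicates 4 and 5 alone, 2 of the 24 genes were called and the median difference was 0.077 log2. Among fatty acid and triglyceride genes 3 of 23 were called, all higher: Acly, Fasn and Acsl1, which supply, build and activate fatty acids, had effects between −0.006 and 0.018 log2 at 72 h and between −0.27 and −0.15 log2 at 48 h. Acly and Fasn lost their calls with 48 h scramble replicates 4 and 5 alone (edgeR adjusted p = 0.0516 for Acly and 0.0808 for Fasn).

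Mitosis genes fell with time in both arms, and 11 of 46 had a higher effect at 72 h. All 46 measured members fell between 48 and 72 h in each arm, with a median change of −0.97 log2 in Kdm5c siRNA and −1.09 log2 in scramble cells, and 35 of the 46 were not called for the difference, 0 being called lower. The median effect was 0.023, 0.029 and 0.16 log2 at 24, 48 and 72 h. Mki67, the proliferation marker Ki-67, stood at 261, 256, 240.1, 243 and 249 CPM with Kdm5c siRNA and 248, 236, 239, 212 and 236 CPM with scramble at 72 h. The 48 h values of Mki67 were 503, 509.7, 487, 501 and 501 CPM with Kdm5c siRNA and 538, 524, 521, 538 and 545 CPM with scramble. The siRNA libraries were all below scramble at 48 h, and at 72 h the ranges overlapped, with a difference of 0.19 ± 0.037 log2 (edgeR adjusted p = 0.00136). Birc5 (survivin), the kinetochore scaffold Knl1, the spindle protein Dlgap5, the motor proteins Cenpe, Kif11 and Kif2c and the cell cycle kinase Cdk1 were effects that appeared, with 0.14 to 0.22 log2 at 72 h. The checkpoint kinase Bub1b, Cenpf and Nek2 were lowered effects that faded. Of 46 DNA replication genes, 3 (6.52%) were called, all higher, near the 4.06% called higher over all genes tested. They were the clamp loader subunit Rfc2, the flap endonuclease Fen1 and Uhrf1, which guides maintenance DNA methylation. Uhrf1 lost its call in 4 of 34 settings. Both list counts were larger with 48 h scramble replicates 4 and 5 alone, when 18 mitosis and 9 DNA replication genes were called. Mean log2 CPM of the mitosis list was 5.47 in replicate 1 of Kdm5c siRNA and 5.34 in replicate 1 of scramble at 72 h, the highest of each group.

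Some chaperones of the endoplasmic reticulum had higher effects at 72 h: of 26 measured folding genes, 7 were called higher, 1 lower and 18 not called. Hspa5, the main chaperone BiP, stood at 863, 885, 861, 852 and 876 CPM with Kdm5c siRNA and 731, 709, 691, 694 and 721 CPM with scramble at 72 h. Its level at 48 h was 938, 893, 919, 946 and 971 CPM with Kdm5c siRNA and 876, 896, 847, 842 and 830.3 CPM with scramble. The 48 h ranges overlapped and the 72 h ranges were apart, a difference of 0.17 ± 0.034 log2 (edgeR adjusted p = 0.00137). Pdia6, a disulfide isomerase, averaged 351 ± 3.22 CPM with Kdm5c siRNA and 288 ± 3.53 CPM with scramble at 72 h, against 407 ± 9.09 and 382 ± 9.99 CPM at 48 h, and differed by 0.19 log2 (edgeR adjusted p = 3.24e-05). Hsp90b1, the chaperone GRP94, differed by 0.17 log2 (edgeR adjusted p = 0.000691), the isomerase Pdia3 by 0.12 log2 and the secreted stress factor Manf by 0.13 log2, all of them raised effects that grew. Creld2 appeared as a raised effect, and Calr, described above, was a lowered effect that faded. Ero1l, the oxidase that recharges disulfide isomerases, went the other way: it stood at 129, 143, 141, 119.5 and 122 CPM with Kdm5c siRNA and 159.6, 178, 165, 179.8 and 173 CPM with scramble at 72 h. Ero1l at 48 h had 62.8, 67.9, 62.6, 58.8 and 59.5 CPM with Kdm5c siRNA and 58.1, 60.9, 61.5, 64.2 and 63.9 CPM with scramble. Its ranges, too, overlapped at 48 h and were apart at 72 h. Its level rose with time by 1.11 log2 in Kdm5c siRNA cells and by 1.51 log2 in scramble cells, a difference of −0.40 ± 0.068 log2 (edgeR adjusted p = 0.000203). With 48 h scramble replicates 4 and 5 alone, 4 members of the list were called higher and 1 lower.

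Promoters of the called chaperones were searched for the endoplasmic reticulum stress element, the letters CCAAT and CCACG with 9 bases of any kind between them, on either strand of the 250 bases before the RefSeq start, because several of them were called in the same direction. Of the 21 measured list members with a promoter sequence, 7 held it, and so did 5 of the 6 called members that had one (Calr, Creld2, Hsp90b1, Hspa5 and Pdia6, not Pdia3). The called members Manf and Ero1l, the latter called lower, had no promoter sequence and were not searched. Over all 9075 tested genes with a promoter sequence, 15 (0.165%) held it. The element of Hsp90b1 occurs at both of the positions shown. The windows below are on the gene's strand, from RefSeq on GRCm38.p6, with the matched letters in capitals, and a match is a description of the sequence.
Calr at chr8:84847070-84847098, minus strand: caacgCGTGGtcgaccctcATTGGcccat
Creld2 at chr15:88819515-88819543, plus strand: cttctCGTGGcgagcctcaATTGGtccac
Hsp90b1 at chr10:86705528-86705556, minus strand: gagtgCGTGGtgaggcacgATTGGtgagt
Hsp90b1 at chr10:86705633-86705661, minus strand: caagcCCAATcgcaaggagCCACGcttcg
Hspa5 at chr2:34772020-34772048, plus strand: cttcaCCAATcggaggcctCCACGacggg
Pdia6 at chr12:17266486-17266514, plus strand: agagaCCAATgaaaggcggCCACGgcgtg
The remaining measured members with the element, Canx and Dnajc3, were not called, with 0.054 log2 (edgeR adjusted p = 0.271) for Canx and 0.095 log2 (edgeR adjusted p = 0.151) for Dnajc3.

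Targets of the integrated stress response, a stress program driven by ATF4, included some genes with lower effects at 72 h. Of 32 measured genes, 7 were called lower and 0 higher, and the estimate was below 0 for 31. The median effect was 0.081, 0.085 and −0.073 log2 at 24, 48 and 72 h. Vldlr, a lipoprotein receptor, stood at 43.8, 47.2, 44.3, 39.9 and 38.6 CPM with Kdm5c siRNA and 44.3, 47.9, 44.5, 47.6 and 45.6 CPM with scramble at 72 h. At 48 h Vldlr stood at 18.2, 23.2, 17.5, 17.7 and 17.3 CPM with Kdm5c siRNA and 14.2, 12.8, 14.5, 16.2 and 15.7 CPM with scramble. The siRNA libraries lay above scramble at 48 h and overlapped it at 72 h, a difference of −0.46 ± 0.097 log2 (edgeR adjusted p = 0.0028, and 0.0901 with 48 h scramble replicates 4 and 5 alone). Slc7a5 and Slc3a2, the subunits of a transporter of large neutral amino acids, differed by −0.37 and −0.19 log2 (edgeR adjusted p = 0.0172 for Slc7a5 and 0.0343 for Slc3a2), the transcription factors Atf5 by −0.19 log2 and Cebpg by −0.13 log2, the stress sensor Sesn2 by −0.18 log2 and Pycr1, which makes proline, by −0.22 log2. With 48 h scramble replicates 4 and 5 alone, a setting with fewer control libraries, 1 of the 32 was called lower. The median difference was −0.089 log2 in that setting, −0.20 log2 with replicates 1 to 3 alone and −0.17 log2 with all 5. The C/EBP-ATF response element, searched as TGATGNAAN on either strand of the same 250 bases, was in 8 of the 27 members with a promoter sequence, in 2 of the 6 called ones and in 203 of the 9075 tested genes (2.24%). Slc7a5, also called, had no promoter sequence and was not searched. The windows of the called members are shown on the gene's strand with the matched fixed letters in capitals.
Pycr1 at chr11:120643833-120643861, minus strand: gccctgtgtaTGATGcAAtgcacaaggct
Vldlr at chr19:27216809-27216837, plus strand: agcagcaatagTTgCATCAgcgctcctag

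**Figure D5:**
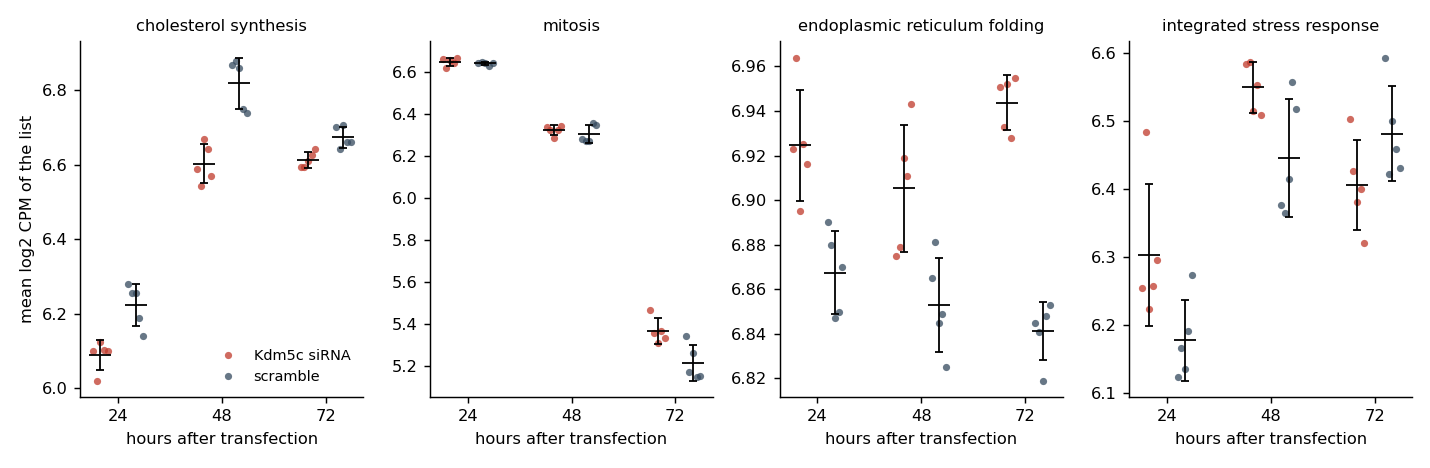
Mean log2 CPM over the measured members of 4 gene lists in each library at 24, 48 and 72 h, with Kdm5c siRNA (red) left of scramble (grey); points are libraries, black marks the mean and SD of 5, and the vertical axes differ between panels and do not start at 0. The 48 h scramble libraries split into 3 and 2 in the cholesterol synthesis and integrated stress response panels, and the mitosis level drops at 72 h in both arms.

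Lysosomal genes rose with time in both arms, 34 of 35 in Kdm5c siRNA cells and 32 in scramble cells, and 8 of the 35 had a higher effect at 72 h, 0 a lower one. Grn (progranulin) differed by 0.17 log2 (edgeR adjusted p = 0.00137), the protease Tpp1 by 0.19 log2 (edgeR adjusted p = 0.001) and the membrane protein Lamp1 by 0.11 log2 (edgeR adjusted p = 0.0128). Ctsd and Ctsa, cathepsins, and Atp6v0d1, a proton pump subunit, were lowered effects that faded, and Gusb and Cd68 were raised effects that appeared. The arms overlapped for Gusb at both times. Gusb and Atp6v0d1 lost their calls with 48 h scramble replicates 4 and 5 alone (edgeR adjusted p = 0.149 for Gusb and 0.142 for Atp6v0d1). Cd68, also on the macrophage marker list, stood at 1.22 to 4.17 CPM in the libraries of 48 and 72 h. With 48 h scramble replicates 4 and 5 alone 4 of the 35 were called higher. Of 20 NRF2 targets, 4 were called, all of them lowered effects that faded: G6pdx, which supplies NADPH, by 0.19 log2 (edgeR adjusted p = 0.000889), Srxn1, a sulfiredoxin, by 0.15 log2 (edgeR adjusted p = 0.00231), and Gstm1 and Hmox1, near the threshold, which lost their calls in 16 and 22 of 34 settings in that order.

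Called matrix genes lay on both sides. Among 46 glycoproteins and proteoglycans, 6 had higher effects at 72 h (Spp1, Dpt, Matn4, Mgp, Sdc1 and Ccn5) and 4 lower ones (Ogn, Ccn4, Postn and Lamb1), and the median difference of 0.056 log2 became −0.034 log2 with 48 h scramble replicates 4 and 5 alone. Mgp, an inhibitor of calcification, had effects of −0.52, −0.82 and −0.27 log2 at 24, 48 and 72 h (edgeR adjusted p = 0.00428 for the last difference). Postn (periostin) had an effect of −0.26 log2 at 72 h and 0.081 log2 at 48 h (edgeR adjusted p = 0.00149), and Lamb1, a laminin chain, 0.028 log2 at 72 h and 0.29 log2 at 48 h (edgeR adjusted p = 4.92e-05). Among 23 collagen chains, Col11a1, Col8a1 (−0.45 log2, edgeR adjusted p = 1.75e-05) and Col1a1 were lower and Col16a1 higher, the last 2 near the threshold and each without a call in 15 of 34 settings. With 48 h scramble replicates 4 and 5 alone, 6 collagen chains were called lower. The median difference of the chains was 0.023 log2 with all libraries and −0.13 log2 in that setting. Among 36 matrix proteases and inhibitors 4 were higher and 3 lower, with Mmp9, a gelatinase, at 0.31 log2 (edgeR adjusted p = 0.00488, and 0.137 with 48 h scramble replicates 4 and 5 alone) and Mmp11, a stromal metalloprotease, at −0.33 log2. Of 8 measured bone and cartilage genes, Spp1, Ank and Phex, an endopeptidase of phosphate balance, were higher and Runx2, the osteoblast transcription factor, was lower (−0.12 log2 at 72 h and 0.11 log2 at 48 h, edgeR adjusted p = 9.68e-05). Phex differed by 0.37 log2 and lost its call with 48 h scramble replicates 1 to 3 alone (edgeR adjusted p = 0.0625).

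Signalling and cell cycle control lists held a few called members each. Of 17 measured genes of the bone morphogenetic protein pathway, 3 were called, all higher, among them Grem1, described above, and Id2, an inhibitor of transcription factors induced by the pathway, by 0.27 log2 (edgeR adjusted p = 0.0455). Of 30 genes of the TGF-beta and activin pathway, Inhbb, an activin subunit, and Ltbp1 were higher, and the receptor Tgfbr1, its effector Smad3 and the feedback inhibitor Pmepa1 were lower, by −0.13, −0.13 and −0.23 log2 in that order. Among 23 Wnt genes, Sfrp2 and Ctnnb1 (beta-catenin) were higher, and the ligand Wnt5a was lower, with effects of −0.11 log2 at 72 h and 0.19 log2 at 48 h (edgeR adjusted p = 0.0147). Of 22 p53 targets, Gadd45a, a growth arrest gene, reversed, with −0.12 log2 at 72 h and 0.25 log2 at 48 h (edgeR adjusted p = 0.00105), the receptor Eda2r and Sesn2 were lower, and Gtse1, which is also a gene of dividing cells, was higher. Of 16 clock genes, the repressors Nr1d1 and Nr1d2 were called, both lower, by −0.24 and −0.21 log2 in that order, and neither effect at 24 h was above 0. Of 21 YAP and TEAD targets and partners, Tead2, Amotl1 and Ankrd1 were lower and F3 (tissue factor) was higher. Of 29 glycolysis and hypoxia genes, Eno2, an enolase, Hk1, a hexokinase, and Pkm, pyruvate kinase, were higher, by 0.35, 0.19 and 0.11 log2 in that order. Grem1, Pmepa1, Ltbp1, Sfrp2, Ctnnb1, Wnt5a, Gadd45a, Eda2r, Gtse1, Nr1d2, Hk1 and Pkm kept their calls with 48 h scramble replicates 4 and 5 alone, while Id2, Inhbb, Tgfbr1, Smad3, Sesn2, Nr1d1, Tead2, Amotl1, Ankrd1, F3 and Eno2 did not. Smad3 lost its call in 21, Id2 in 18 and Inhbb in 14 of 34 settings, other scalings among those of Smad3. Gtse1 lost its call in 8 and Pkm in 5 of them. Replicates 1 to 3 of the 48 h scramble alone was 1 of these settings (edgeR adjusted p = 0.0681 for Gtse1 and 0.0738 for Pkm).

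Among mature adipocyte genes 3 of 11 (27.3%) were called, and among adipogenic regulators 3 of 22 (13.6%), all higher. The share over all genes tested was 4.06% higher. The mature adipocyte genes had a median difference of 0.003 log2, with 6 estimates above and 5 below 0. The regulators had a median difference of 0.028 log2, with 13 estimates above and 9 below 0. Their median effect was −0.11 log2 at 72 h and −0.068 log2 at 48 h. Fabp4, the only mature adipocyte marker in the count table, had effects of 0.30 log2 at 72 h and −0.007 log2 at 48 h. Its difference of 0.31 log2 was not called. Of 22 adipogenic regulators, Klf5, Rxra and Stat5a had higher effects at 72 h, by 0.29, 0.19 and 0.26 log2 in that order, of which Klf5 was a raised effect that grew and Rxra and Stat5a were lowered effects that faded. Rxra and Stat5a lost their calls with 48 h scramble replicates 4 and 5 alone (edgeR adjusted p = 0.0649 for Rxra and 0.185 for Stat5a). Plin4, a lipid droplet protein, had effects of −0.42, −0.60 and −0.27 log2 at 24, 48 and 72 h, and its difference of 0.34 log2 was likewise lost in that setting (edgeR adjusted p = 0.0814). The other called mature adipocyte genes were Cavin1, at 0.11 log2, and Cav1, at 0.12 log2. Cavin1 lost its call in the same setting (edgeR adjusted p = 0.0665), and Cav1 lost its call in 6 of 34 settings. In 6 lists the edgeR test made 0 calls: of 73 ribosomal protein genes, 10 had an unadjusted p under 0.05, of 63 nuclear respiratory chain genes 7, of 53 interferon-stimulated genes 1, of 16 imprinted genes 5, of 12 RNA interference genes 2 and of 7 mitochondrially encoded messenger RNAs 0. DESeq2 called 1 of the respiratory chain genes and limma 1 of the imprinted genes, and neither called a member of the other 4 lists. Interferon-stimulated genes varied widely between libraries of a group: mean log2 CPM over the 53 was 5.25 ± 0.20 with Kdm5c siRNA and 5.74 ± 0.15 with scramble at 72 h, against 4.49 ± 0.26 and 4.75 ± 0.27 at 48 h (SD, n = 5). The estimate was below 0 for 49 of the 53 with a median of −0.20 log2, and the median was 0.016 log2 with 48 h scramble replicates 4 and 5 alone. Rsad2 and Gbp2 of this list, and Apol9a, Apol9b and Tgtp1, were among the genes with the most positive effects at 24 h, and their differences of −0.25 to −0.67 log2 did not pass the test, although each was called in 1 of 34 settings, the fit without a filter on low values (edgeR adjusted p between 9.32e-06 and 0.0108), while reads of the near-identical Apol9a and Apol9b may be shared between them. At 24 h the list mean overlapped between the arms, from 4.022 to 5.336 with Kdm5c siRNA and from 3.468 to 4.816 with scramble. Replicate 2 held the highest siRNA value at 24 h, and the next highest was 4.375.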

How the data were processed

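Strand-specific messenger RNA libraries of 3T3-L1 cells were analysed: 20 of 48 and 72 h and, to choose genes, 10 of 24 h. The authors deposited raw counts for 12016 genes and CPM for 55573. Tools named in the submitters' processing notes are STAR 2.7.2a and edgeR 3.26.8, with the build GRCm38 and no roles; the read counter and the annotation were not given in the sources used here. Every nonzero CPM was within 0.05 of a whole number of reads after multiplication by the library total (100.0%), and these reads equalled the deposited counts. The genes of the count table had at least 1 CPM in 20 or more libraries. A count test on the reads of all 32318 genes called 848.

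Counts of 25217905 to 33725717 reads per library were fitted with edgeR 4.0.16 (R 4.3.3), TMM scaling, 6 group means over all 30 libraries and a quasi-likelihood F test, two-sided, with Benjamini-Hochberg adjustment over 12016 genes and calls under 0.05. Limits for a count of 0 cover counting error only. CPM are printed as deposited, and per-library list levels are means of log2 CPM with TMM scaling and a prior count of 2. Alternatives were DESeq2 1.42.0, limma 3.58.1 on log2(CPM + 0.1, 0.5 or 2), other scalings and filters, the 20 libraries alone, a replicate block and each library left out. The test was tried on simulated counts. Symbols and coordinates came from GENCODE M21 (all 12016 identifiers matched) and promoters from RefSeq on GRCm38.p6 (9075 matched). Python drew the figures.

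The members, the 36 gene lists and the 6 marker lists were chosen with earlier results of these data known. Genes named by rule were Kdm5c, the 12 highest and 12 lowest differences among called genes of at least 2 CPM, leaving out predicted models, pseudogenes and small RNA genes, 5 per pattern and up to 5 per list by adjusted p, and the 8 strongest 24 h effects each way. Other called list members were named after their values were seen. The siRNA sequences are not used here. Results of some called genes are not reported here.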

Additional observations from a re-analysis of the deposited data

Results flagged for a closer look

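The difference itself marks genes whose effect at 72 h differed from that at 48 h by a test of the difference: 488 genes with a higher and 217 with a lower effect at 72 h by edgeR. Among the named genes with reversed effects, the difference was −0.32 log2 for Antxr2, 0.31 log2 for Rasa3, −0.31 log2 for Sox4, 0.66 log2 for Sfrp2 and 0.24 log2 for Prkg2.

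A single library lay far from the other 4 of its group in 5 of 120 groups of values examined, by Dixon's criterion, which chance meets in about 1 of 20 groups. These were Ntrk3 at 19.7 CPM and Sox4 at 207.1 CPM, both in replicate 5 of scramble at 48 h, Vldlr at 23.2 CPM in replicate 2 and Ccn4 at 213.3 CPM in replicate 5 of Kdm5c siRNA at 48 h, and the total of 30688043 reads of replicate 1 of Kdm5c siRNA at 72 h.

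Among the 20302 genes with reads that only the CPM table holds, which the comparisons above do not use, edgeR on the reads recovered from that table called 27 with a higher and 18 with a lower effect at 72 h.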

How the results depend on the processing

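Of the 705 calls, none changed sign under any of 34 alternative settings, and of 143 named genes with a call 75 kept it in all of them. Without a filter on low values the effect was lower at 72 h for 334 genes and 151 effects grew. The next 3 settings were chosen after seeing the data. With 48 h scramble replicates 4 and 5 alone, 318 genes had a higher and 129 a lower effect at 72 h, 48 effects grew, 151 faded and 31 reversed, 118 of the genes lower at 24 h had a higher and 3 a lower effect at 72 h, and 52 of the genes higher at 24 h had a lower and 30 a higher one; this setting has fewer control libraries as well as other ones, and which of these lowered the counts was not tested. The other added settings, 48 h scramble replicates 1 to 3 alone and no replicate 1 in either 72 h group, moved none of these counts by over 1.5 times. Leaving out 1 library in turn gave 401 to 569 higher and 172 to 268 lower effects, 195 to 321 that appeared, 75 to 133 that grew, 238 to 334 that faded and 37 to 64 that reversed. For the genes lower at 24 h it gave 164 to 218 with a higher and 3 to 8 with a lower effect at 72 h, the 3 without replicate 2 of Kdm5c siRNA or replicate 3 of scramble at 48 h, and for those higher at 24 h 32 to 50 with a higher and 78 to 108 with a lower one. DESeq2 called 792 genes and limma on log2(CPM + 0.5) 676, with 692 and 656 of the 705 among them. The labels number the replicates alike in each group. Between the 48 h arms same-numbered libraries did not deviate together (correlations of −0.22 to 0.14, against −0.17 to 0.22 for other numbers). Between the 72 h arms the correlations were −0.08 to 0.3, against −0.21 to 0.15 for other numbers. Replicate 1 had the lowest first component of both 72 h groups, at 15.9 with Kdm5c siRNA and 22 with scramble. A replicate block gave 700 calls, 658 of them shared. Depth limits genes below about 1 CPM. The count table holds only genes with at least 1 CPM in 20 or more of the 30 libraries, so it also leaves out genes that rose late. Csf2rb is among these, at 7.30 CPM with Kdm5c siRNA and 4.74 CPM with scramble at 72 h. The counts of effects that appeared do not include such genes.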

Other observations

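Receptors and secreted proteins of low abundance lay outside the count table and were seen only in the reads recovered from the CPM table. They were chosen after their values were seen. Csf2rb, a shared receptor chain for hematopoietic cytokines, averaged 7.30 ± 1.06 CPM with Kdm5c siRNA and 4.74 ± 0.848 CPM with scramble at 72 h, against 0.769 ± 0.213 and 1.22 ± 0.382 CPM at 48 h (SD, n = 5). Its effect differed by 1.27 log2 between 72 and 48 h (edgeR adjusted p = 3.48e-07), and its level was several times higher at 72 h in both arms. Aqp3, a water and glycerol channel, averaged 2.16 ± 0.447 CPM with Kdm5c siRNA and 0.982 ± 0.0498 CPM with scramble at 72 h, against 1.64 ± 0.218 and 1.57 ± 0.438 CPM at 48 h, and differed by 1.07 log2 (edgeR adjusted p = 0.000826). Grpr, a receptor for gastrin-releasing peptide, differed by 1.10 log2 (edgeR adjusted p = 0.00067), and Hp (haptoglobin) by 2.59 log2 (edgeR adjusted p = 0.000134) on 0.805 ± 0.354 CPM with Kdm5c siRNA and 0.236 ± 0.130 CPM with scramble at 72 h. The smallest adjusted p values of this set belonged to Gm4518, mt-Co2 and Rps2-ps5, whose SDs exceeded their means in at least 1 group. For mt-Co2 at 48 h these were 1.95 ± 4.01 CPM with Kdm5c siRNA and 0.125 ± 0.117 CPM with scramble (SD, n = 5).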
